A study of Sorghum bicolor with 177 samples.

Results

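Plants of Sorghum bicolor cv. BTx623, the line behind the sorghum reference genome, gave young leaves for a comparison after 7 d in hydroponic solution without iron and after 7 d in the control solution. The iron-limited plants received 0 µM NaFe(III)EDTA and 1 µM ZnSO4, and the control plants 50 µM NaFe(III)EDTA and 1 µM ZnSO4. Both groups had been raised and acclimated on the control solution before the transfer, and leaf discs were taken in the late morning. Each group is 3 libraries from 3 plants, 6 of the 177 libraries of a poly-A selected RNA-seq series that also covers iron excess (1 mM NaFe(III)EDTA), zinc excess (100 µM ZnSO4), zinc limitation (0 µM ZnSO4), roots, and times up to 21 d. The deposited table gives 1 mean TPM (transcript abundance scaled by length and library total) per group. The 7 d difference is therefore log2(mean TPM + 1) under iron limitation minus the same in control, with no SD and no test of its own. Genes with at least 5 TPM in one of these leaf groups entered, 12790 of 34129. The last gene kept had a higher mean of 5.004 TPM and the first left out one of 4.999 TPM. A gene was counted as higher or lower when the groups differed at least 2-fold on this scale, which understates the change of low genes.

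Iron sits in the haem and iron-sulfur groups of photosynthetic and respiratory electron carriers, and photosystem I holds more of it than photosystem II. In Arabidopsis, leaves short of iron raise bHLH transcription factors of subgroup Ib and the iron-sensing ubiquitin ligase BTS, and lower ferritin, which stores iron in plastids. OPT3, an oligopeptide transporter of the phloem, is known there for moving iron between leaf and root. Genes below carry the symbol of the closest Arabidopsis gene in the deposited annotation with "-like", so their roles are those known from Arabidopsis unless another species is named. Sorghum copies with one Arabidopsis hit in common may have exchanged reads in the authors' quantification.

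The 7 d control mean stood apart from all other leaf means in transcripts that resemble organelle genes. The 77 genes whose closest Arabidopsis gene is plastid-encoded summed to 3771 TPM under iron limitation and 15830 TPM in control, against 1357 to 6557 TPM in the other 24 leaf means. The 17 genes resembling mitochondrial genes summed to 17.4 TPM under iron limitation and 124.7 TPM in control, against 8.44 to 32.6 TPM elsewhere. A total of 39 genes, 25 of them with a plastid hit, were at least 4 times higher in the 7 d control than in every other leaf mean. These 39 genes summed to 426 TPM under iron limitation and 18587 TPM in control. Sobic.K044407, annotated as a Ypt/Rab-GAP domain protein, had 0.491 TPM under iron limitation and 6371 TPM in control, and 0.312 to 0.649 TPM in the other 7 d groups. The differences below are therefore also given, where it matters, against the mean log2 value of the iron excess, zinc excess and zinc limitation leaves at 7 d. The zinc excess mean is labelled with 5 libraries, 3 of which carry the plant labels of the 2 d zinc excess leaves. What share each control plant had in these sums cannot be told from a mean.

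Leaf identity held in both groups. Markers of mesophyll cells, which first fix carbon in C4 leaves, summed to 20381 TPM under iron limitation and 20050 TPM in control, and those of the bundle sheath, which holds the Calvin cycle, to 20469 and 18651 TPM. A set of 39 CASP-family genes, taken as root markers, summed to 612 TPM under iron limitation and 408 TPM in control. The other leaf means had 322 to 601 TPM, and 11 of the 39 genes were at 0 in both groups. Every leaf mean held at least 322 TPM of this set, so its sum does not tell root tissue from leaf. The 52 epidermis markers summed to 3836 TPM under iron limitation and 2361 TPM in control, with 1784 to 3515 TPM in the other leaf means. Under iron limitation the CASP-family and epidermis sums thus lay above those of all other leaf means. The 68 markers of dividing cells summed to 3115 TPM under iron limitation and 3467 TPM in control. Histone genes alone summed to 3114 and 3466 TPM, so these sums hold almost nothing else. Of 29 measured markers of dividing cells, 3 were at least 2-fold higher and 3 lower, with a median difference of 0.17. Among all genes 28.9 percent were higher and 3.34 percent lower. The 82 expansins, markers of expanding cells, summed to 77.3 TPM under iron limitation and 137.5 TPM in control. That control value lay above the other leaf means (36.05 to 119.8 TPM), and the other 7 d groups had 69.3 to 81.2 TPM. Vascular markers summed to 325 TPM under iron limitation and 231 TPM in control. The part of these shifts in the results below was not tested, and in bulk leaf discs fewer cells of a type and less RNA per cell cannot be told apart.

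Iron limitation moved far more transcripts up than down on the TPM scale. Of 12790 genes, 3697 were higher (28.9 percent) and 427 were lower (3.34 percent), and the median difference was 0.72 log2 units. The share of TPM in nuclear photosystem and light-harvesting genes was 22.9 percent under iron limitation and 39.6 percent in control, and TPM sums to a fixed total in every column. The part of this share in the shift of the other genes was not tested. After recentring the differences to a median of 0, 696 genes (5.44 percent) were higher and 1099 (8.59 percent) lower. Against the mean of the 4 d and 14 d controls, 2034 genes (15.9 percent) were higher and 627 (4.9 percent) lower. Against the other 7 d groups, 2210 genes (17.3 percent) were higher and 420 (3.28 percent) lower. The number of genes at 5 TPM or more was 12434 under iron limitation and 10291 in control. A gene at that level in 1 group alone also entered, so more genes could enter through iron limitation than through control. Without any minimum, 4372 genes were higher and 741 lower. The part of the entry rule in the counts above was not tested.

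**Figure D1:**
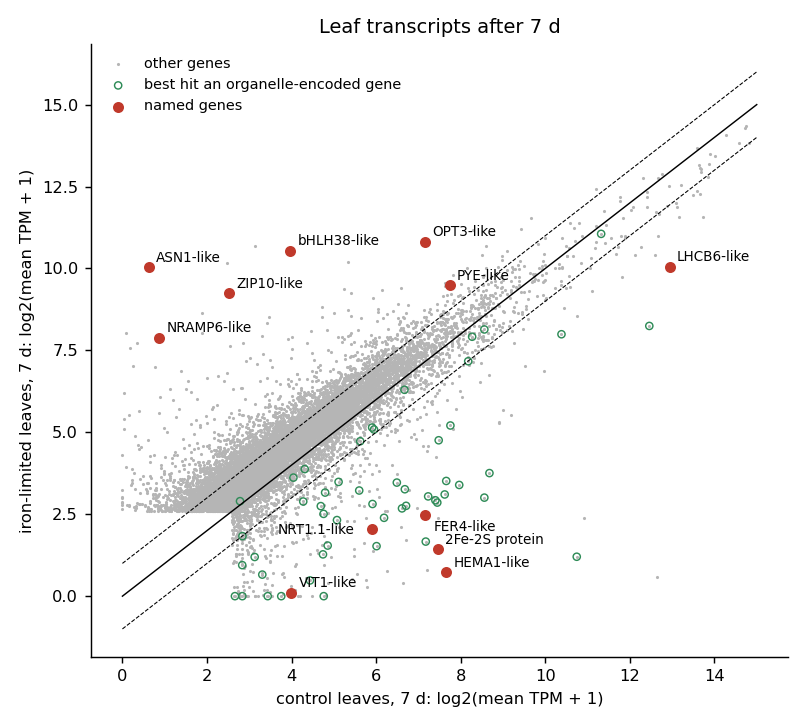
Each point is 1 of 12790 genes, with log2(mean TPM + 1) of iron-limited leaves at 7 d on the y axis and of control leaves at 7 d on the x axis; the solid line marks equal values and the dashed lines 2-fold. The iron-related and other named genes lie far from the line, and most genes with an organelle-encoded best hit lie below it, where the 7 d control was high.

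Because the 7 d means allow no test, the same contrast was tested in other plants, as iron limitation minus control over the leaf means at 14 d and 21 d. The limma fit used 10 means (5 groups at each of these times) with additive terms for treatment and time. Its p therefore reflects how unevenly treatment differences held between the 2 times, pooled over all 5 groups, and not the spread between plants. Adjusted p-values are by Benjamini-Hochberg over all 12790 genes. The fit called 682 genes higher (5.33 percent) and 267 lower (2.09 percent). Below, "rose" and "fell" refer to this test, and 7 d values are given as levels or differences.

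Of 10 measured regulators of the iron response, 4 were higher, 2 lower and 4 within 2-fold at 7 d. The shares of 40 percent higher and 20 percent lower stand beside 28.9 and 3.34 percent of all genes, and in the later leaves 4 rose and 3 fell. The bHLH38-like gene Sobic.003G428800, a subgroup Ib factor, had 1489 TPM in iron-limited leaves and 14.7 TPM in control leaves, a difference of 6.57, and rose by 8.57 ± 1.49 (SE) in later leaves (limma adjusted p = 0.011). The BTS-like ligases followed: Sobic.009G222200 had 406 TPM under iron limitation and 64.6 TPM in control, and Sobic.003G262200 had 240 and 35.3 TPM. Both rose later, by 4.77 ± 0.85 and 4.25 ± 0.68 (limma adjusted p = 0.0122 and 0.00722). In Arabidopsis BTS marks bHLH partners such as ILR3 for breakdown.

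PYE, a bHLH factor that represses iron storage and transport genes, has 2 measured copies here, and they went opposite ways. Sobic.001G355600 had 716 TPM under iron limitation and 213 TPM in control, a difference of 1.74, and rose by 6.11 ± 0.87 in later leaves (limma adjusted p = 0.00423). Sobic.005G177800 had 0.371 TPM under iron limitation and 7.32 TPM in control, a difference of -2.60, and fell by 3.80 ± 0.56 (limma adjusted p = 0.00524). ILR3-like copies, bHLH partners of PYE, also differed among themselves. Sobic.009G160000 had 3.35 TPM under iron limitation and 33.6 TPM in control, a difference of -2.99, and fell by 5.10 ± 0.69 later (limma adjusted p = 0.00335). The most abundant copy, Sobic.007G033800, had 319 TPM under iron limitation and 387 TPM in control, a difference of -0.28, and was not called later.

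For several of these genes the 7 d control was itself above the other 7 d groups that received 50 µM or more iron. The PYE-like Sobic.001G355600, at 213 TPM in the 7 d control, had 3.78 TPM in iron excess, 20.3 TPM in zinc excess and 12.1 TPM in zinc limitation. Against those groups its 7 d difference was 6.02, not 1.74. The OPT3-like Sobic.001G087700 had 26.3, 53.5 and 31.5 TPM in the same groups, and the BTS-like Sobic.009G222200 had 13.9, 27.3 and 15.9 TPM. The 4 d control was high as well, with 149.7 TPM of the bHLH38-like gene against 1.66 to 14.7 TPM in the controls of other times. Why these control means differ was not tested.

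Iron storage transcripts were very low. Both ferritin genes of the annotation, FER4-like, were lower: Sobic.008G004800 had 4.59 TPM under iron limitation and 142 TPM in control (difference -4.67), and Sobic.005G004500 had 3.30 and 95.7 TPM (difference -4.49). The other 7 d groups held 277 to 612 TPM of the first and 144 to 313 TPM of the second. In later leaves ferritin transcripts fell by 6.00 ± 0.90 and 5.44 ± 0.90 (limma adjusted p = 0.00553 and 0.00878). The VIT1-like Sobic.002G194600, named for the transporter that loads iron into the vacuole, had 0.0743 TPM under iron limitation and 14.97 TPM in control. It fell by 5.94 ± 1.21 later (limma adjusted p = 0.021). The second measured member, Sobic.006G109000, had 11.85 TPM under iron limitation and 9.81 TPM in control. The other 6 members of the family stayed under 5 TPM in both groups.

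A few metal transporters accounted for most of the transporter signal. The ZIP10-like Sobic.001G156800, also described as similar to an iron regulated transporter, had 602 TPM under iron limitation and 4.77 TPM in control (difference 6.71). The NRAMP6-like Sobic.002G095600, described as similar to OsNramp1 of rice, had 235 TPM under iron limitation and 0.824 TPM in control (difference 7.01). The OPT3-like Sobic.001G087700 had 1795 TPM under iron limitation and 142 TPM in control (difference 3.65), the highest level among the transporters named. All 3 rose in later leaves, by 8.87 ± 1.38, 8.41 ± 0.63 and 5.21 ± 0.65 (limma adjusted p = 0.00656, 0.000185 and 0.00207).

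Family counts are read against 28.9 percent higher and 3.34 percent lower among all genes. In the NRAMP family 5 of 6 genes were higher at 7 d (83.3 percent) and none lower, 2 of them also after recentring, and 2 rose later. NRAMP2-like Sobic.001G462500 had 429 TPM under iron limitation and 65.1 TPM in control, and rose by 3.96 ± 0.47 (limma adjusted p = 0.00173). Of 10 ZIP genes, 3 were higher and 2 lower, but 1 higher and 3 lower after recentring, and only the ZIP10-like gene of this family rose later. The share of ZIP genes higher, 30 percent, is near that of all genes. Of 8 measured YSL and OPT genes, 4 were higher (50 percent) and none lower; after recentring only OPT3-like remained past 2-fold. The other 22 of 30 stayed under 5 TPM. The YSL3-like Sobic.006G164300, described as similar to an iron transport protein, had 46.8 TPM under iron limitation and 55.8 TPM in control. Among heavy metal pumps, 5 of 10 were higher (50 percent) and 1 lower (0 and 3 after recentring). The lower one, HMA1-like Sobic.010G240500, a pump of the plastid envelope, had 3.40 TPM under iron limitation and 17.9 TPM in control and fell by 2.51 ± 0.54 (limma adjusted p = 0.0245). ZIFL1-like Sobic.008G015800, of a family with a phytosiderophore exporter in rice, had 88.1 TPM under iron limitation and 14.2 TPM in control, and rose by 2.89 ± 0.32 (limma adjusted p = 0.00125). The single measured nicotianamine synthase, NAS4-like Sobic.001G151400, makes a metal chelator. It had 116 TPM under iron limitation and 205 TPM in control (difference -0.82), short of 2-fold, but was past 2-fold lower against the other 7 d groups (-1.52), against the 4 d and 14 d controls (-1.74) and after recentring (-1.54). It was not called later (limma adjusted p = 0.0615).

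**Figure D2:**
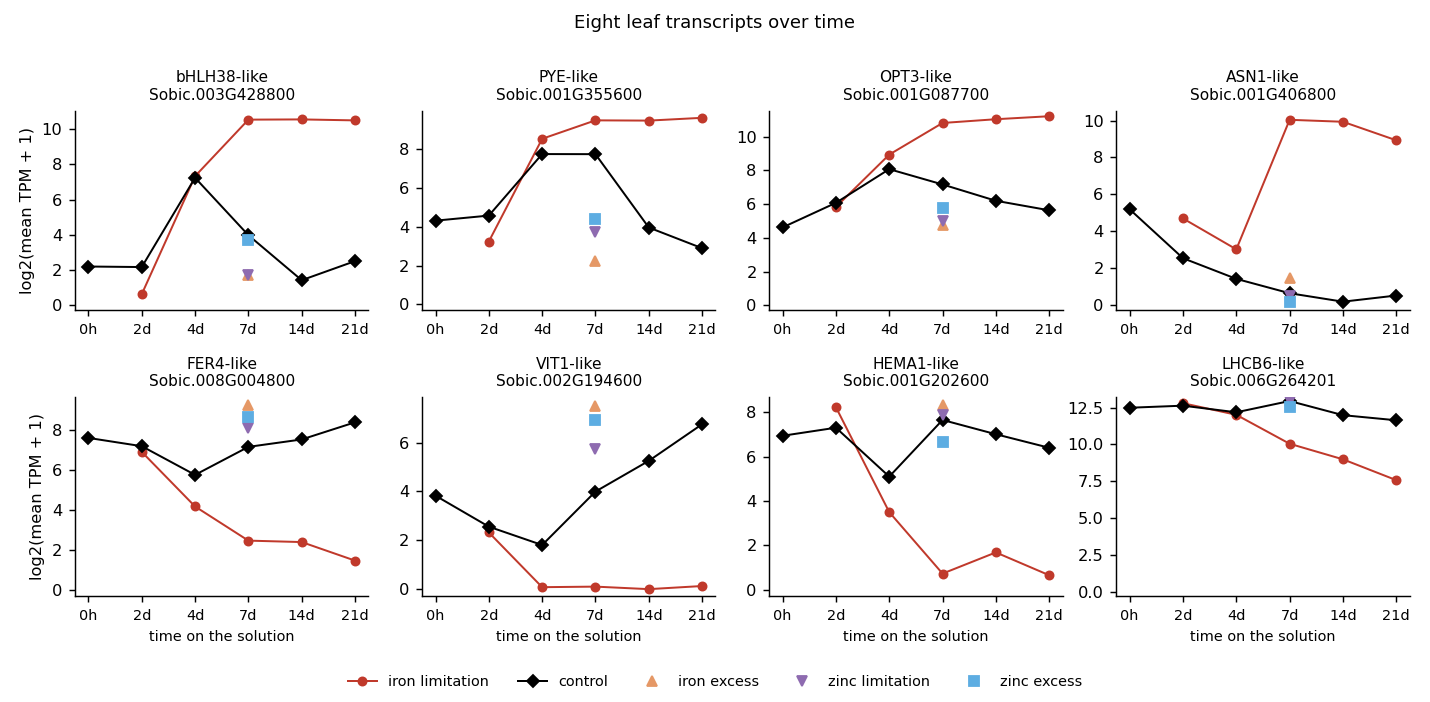
Each panel shows log2(mean TPM + 1) of 1 gene from 0 h to 21 d in iron-limited (red circles) and control (black diamonds) leaves, with the 7 d iron excess, zinc limitation and zinc excess means as single symbols. At 7 d bHLH38-like stood at 1489 TPM under iron limitation and 14.7 TPM in control, and the FER4-like gene at 4.59 and 142 TPM. The control curve of bHLH38-like peaks at 4 d, while that of PYE-like is equally high at 4 d (214 TPM) and 7 d (213 TPM).

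Transcripts of photosystem subunits and of the light-harvesting antenna were lower. All 11 measured photosystem I subunits had differences between -2.17 (PSAF, Sobic.001G070500) and -0.66 (PSAK, Sobic.002G033900). Of the 11, 6 were past 2-fold (54.5 percent, beside 3.34 percent lower among all genes). PSAF, the subunit that docks plastocyanin, had 3026 TPM under iron limitation and 13644 TPM in control. Summed, photosystem I subunits held 43401 TPM under iron limitation and 92612 TPM in control. In later leaves 4 of the 11 fell: PSAF by 2.75 ± 0.41, PSAN by 2.43 ± 0.40 (Sobic.008G063500), PSAL by 1.86 ± 0.41 (Sobic.003G052500) and PSAD by 1.67 ± 0.37 (Sobic.001G046900), with limma adjusted p from 0.00522 to 0.028. Among all genes 2.09 percent fell later. Recentred, all 11 photosystem I subunits were past 2-fold lower at 7 d and none higher, beside 8.59 percent lower among all genes.

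Photosystem II subunits held 35027 TPM under iron limitation and 60664 TPM in control. Of 10 genes, 5 were lower and 1 higher (50 and 10 percent, beside 3.34 and 28.9 percent of all genes). The lowest, PSBX-like Sobic.003G055300, had 854 TPM under iron limitation and 3576 TPM in control and was the only member that fell later, by 2.11 ± 0.43 (limma adjusted p = 0.0219). PSBO, which shields the manganese cluster, had 9077 TPM under iron limitation and 12712 TPM in control for Sobic.010G241000, a difference of -0.49. The higher member was a second PSBR-like copy, Sobic.002G032700, with 55.8 TPM under iron limitation and 3.72 TPM in control. The median difference was -1.02 for photosystem I and -0.998 for photosystem II.

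Of 16 measured light-harvesting genes, 6 were lower and none higher, and all 16 were lower after recentring. The share lower was 37.5 percent, beside 3.34 percent of all genes, or 8.59 percent of them after recentring. LHCB6-like Sobic.006G264201, the minor antenna CP24, had 1058 TPM under iron limitation and 7887 TPM in control, a difference of -2.90. It fell by 3.52 ± 0.48 in later leaves (limma adjusted p = 0.00368). LHCB1.5-like copies ranged widely: Sobic.003G209800 had 1347 TPM under iron limitation and 6188 TPM in control (difference -2.20), while Sobic.009G234600 had 20780 and 27286 TPM (difference -0.39). LHCA3, of the photosystem I antenna, had 4964 TPM under iron limitation and 12977 TPM in control (Sobic.010G189300) and fell by 1.98 ± 0.38 (limma adjusted p = 0.018). Over photosystem and electron transport genes together, 11 of 26 were lower and 1 higher at 7 d, with a median of -0.83 against 0.72 over all genes. Fewer were past 2-fold lower against other controls. Against the other 7 d groups 8 of the 26 were lower, with 5 in photosystem I, 3 in photosystem II and 5 light-harvesting genes. Against the mean of the 4 d and 14 d controls 4 of the 26 were lower, with 3 in photosystem I, 1 in photosystem II and 2 light-harvesting genes.

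**Figure D3:**
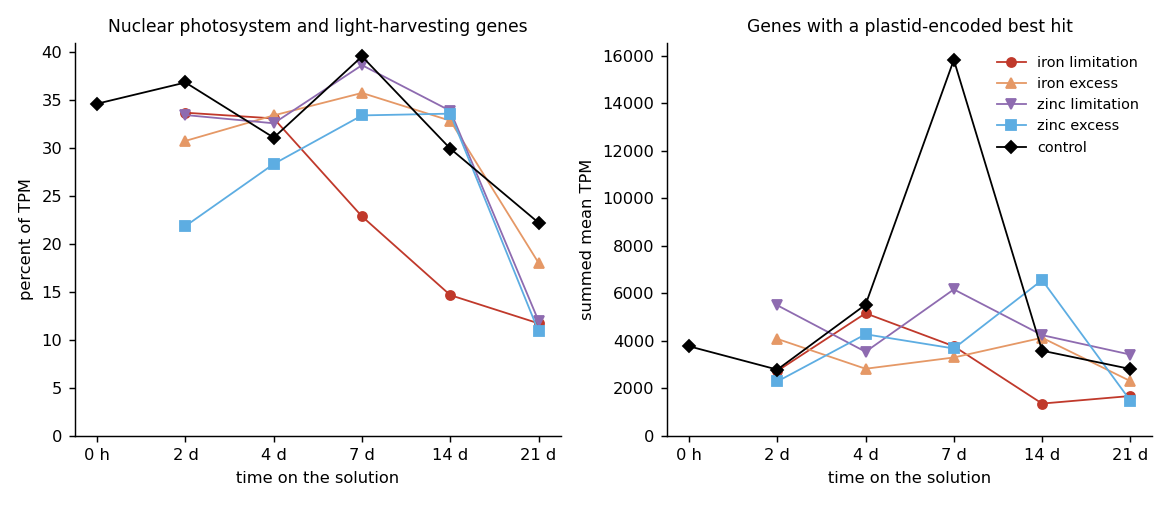
The left panel gives the percent of TPM in nuclear photosystem and light-harvesting genes in each leaf mean and the right panel the summed TPM of genes with a plastid-encoded best hit, by time on each solution. Iron-limited leaves drop to 22.9 percent at 7 d, against 39.6 percent in control, and the 7 d control stands alone at 15830 TPM on the right.

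In pigment synthesis the lowest transcripts were those of the entry step and of the light-dependent step. HEMA1 encodes glutamyl-tRNA reductase, which starts tetrapyrrole synthesis. Its copy Sobic.001G202600 had 0.659 TPM under iron limitation and 200 TPM in control (difference -6.92), with 99.5 to 317 TPM in the other 7 d groups. Copy Sobic.006G234100 had 116 TPM under iron limitation and 1007 TPM in control (difference -3.11). The copies fell by 5.53 ± 0.65 and 3.71 ± 0.45 in later leaves (limma adjusted p = 0.00154 and 0.00197). PORA-like protochlorophyllide reductases had 639 TPM under iron limitation and 2206 TPM in control for Sobic.001G206200, and 29.9 and 118 TPM for Sobic.006G268200; both fell later, by 2.20 ± 0.36 and 3.39 ± 0.62 (limma adjusted p = 0.00824 and 0.0137). In all, 6 of 25 measured genes of the pathway were lower and 1 higher at 7 d, and 4 fell and 1 rose later. The 7 d shares, 24 and 4 percent, stand beside 3.34 percent lower and 28.9 percent higher among all genes. In the later test 2.09 percent of all genes fell and 5.33 percent rose. The pathway median was -0.47 against the 7 d control but 0.19 against the mean of the 4 d and 14 d controls, where 6 were higher and 3 lower. The gene that rose later was HEMF1-like Sobic.007G076700, with 29.04 TPM under iron limitation and 15.7 TPM in control at 7 d. CRD1, a diiron cyclase of chlorophyll synthesis, had 2033 TPM under iron limitation and 3534 TPM in control (Sobic.003G132100). Chlorophyll b reductase, NYC1-like Sobic.003G010600, acts in breakdown. It had 0.278 TPM under iron limitation and 10.7 TPM in control and fell by 4.66 ± 0.63 (limma adjusted p = 0.00357). Of 9 measured breakdown genes, 2 were higher and 1 lower at 7 d (22.2 and 11.1 percent). CLH2-like Sobic.001G243300 had 13.6 TPM under iron limitation and 1.74 TPM in control, and PAO-like Sobic.001G504900 had 51.1 and 17.5 TPM. Neither of these 2 was called later (limma adjusted p = 0.0872 and 0.646).

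Transcripts for some proteins that carry iron were nearly absent while others of the same class were not. Among 48 genes annotated with iron-sulfur cluster binding, 7 were lower and 11 higher at 7 d (13 lower and 1 higher after recentring). These are 14.6 percent lower and 22.9 percent higher, beside 3.34 and 28.9 percent of all genes. In later leaves 5 fell and none rose. Sobic.002G297900, annotated as binding a 2Fe-2S cluster, had 1.72 TPM under iron limitation and 175 TPM in control (difference -6.02). Sobic.009G225600, a 2Fe-2S ferredoxin-like protein, had 0.714 TPM under iron limitation and 75.6 TPM in control (difference -5.48). They fell by 6.80 ± 0.60 and 5.43 ± 0.54 in later leaves (limma adjusted p = 0.000354 and 0.000728). The ferredoxin of photosynthetic electron transport, FD2-like Sobic.007G004800, had 1364 TPM under iron limitation and 4484 TPM in control but was not called later (limma adjusted p = 0.269). The 20 kDa subunit of mitochondrial complex I, Sobic.003G279200, had 22.8 TPM under iron limitation and 149 TPM in control, and fell by 3.55 ± 0.39 (limma adjusted p = 0.00105). NDA2-like Sobic.003G343500, an alternative NAD(P)H dehydrogenase that bypasses complex I, was lower too, with 0.436 TPM under iron limitation and 42.3 TPM in control. It fell by 5.33 ± 0.43 (limma adjusted p = 0.000216). Of 6 measured alternative respiration genes, 2 were higher and 1 lower at 7 d (0 and 1 after recentring), and 1 rose and 1 fell later. The higher ones, IM-like Sobic.006G258800 and NDB1-like Sobic.010G235000, had 14.3 and 5.87 TPM under iron limitation and 4.46 and 2.15 TPM in control.

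Cluster assembly itself moved little. Of 18 assembly genes, 3 were higher and 1 lower at 7 d (0 and 3 after recentring), and 1 fell later. That one, Sobic.003G343400, the NAP1-like SufB subunit of the plastid scaffold, had 61.02 TPM under iron limitation and 147 TPM in control and fell by 1.68 ± 0.32 (limma adjusted p = 0.0154). Haem proteins went both ways: 34 of 97 genes annotated with haem binding were higher and 13 lower at 7 d (13 and 24 after recentring). The share higher, 35.1 percent, is near the 28.9 percent of all genes, and the share lower was 13.4 percent beside 3.34 percent. Later 16 rose and 11 fell.

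Enzymes that remove peroxide and superoxide went both ways, also among copies of one enzyme. CAT1-like Sobic.004G011566, a haem catalase, had 5.04 TPM under iron limitation and 72.8 TPM in control, and fell by 6.27 ± 1.17 (limma adjusted p = 0.0152). APX1-like Sobic.001G410200, a haem ascorbate peroxidase, had 7.82 TPM under iron limitation and 34.7 TPM in control, and fell by 3.20 ± 0.37 (limma adjusted p = 0.00137). CSD2-like Sobic.007G166600, the plastid copper/zinc superoxide dismutase, had 175 TPM under iron limitation and 73.1 TPM in control, and rose by 2.91 ± 0.41 (limma adjusted p = 0.00423). A second haem catalase, CAT2-like Sobic.010G274500, had 51.9 TPM under iron limitation and 15.98 TPM in control, and was not called later (limma adjusted p = 0.124). A haem peroxidase of the thylakoid, TAPX-like Sobic.006G084400, had 193.9 TPM under iron limitation and 96.0 TPM in control, and rose by 1.24 ± 0.32 (limma adjusted p = 0.0471). The iron superoxide dismutases FSD2-like Sobic.010G012900 and FSD3-like Sobic.010G033000 had 17.8 and 12.2 TPM under iron limitation and 8.81 and 6.74 TPM in control, short of 2-fold. Of all 18 genes on the list, 7 were higher and 3 lower at 7 d, and 0 and 5 after recentring. The 7 d shares, 38.9 and 16.7 percent, stand beside 28.9 and 3.34 percent of all genes. Recentred, 5.44 percent of all genes were higher and 8.59 percent lower. Later 2 of the 18 rose and 2 fell, beside 5.33 and 2.09 percent of all genes.

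Transcripts of a nitrate transporter and of single steps of nitrogen and sulfur reduction were low. The reductases of those steps, not the transporter, use sirohaem and iron-sulfur groups. NRT1.1-like nitrate transporter Sobic.001G302800 had 3.16 TPM under iron limitation and 58.5 TPM in control, and fell by 4.86 ± 0.39 (limma adjusted p = 0.000208). Nitrite reductase Sobic.004G309300 had 104 TPM under iron limitation and 248 TPM in control, and fell by 2.20 ± 0.51 (limma adjusted p = 0.0336). APR3-like APS reductase Sobic.002G314300 had 37.99 TPM under iron limitation and 480 TPM in control, and sulfite reductase Sobic.009G189400 had 32.4 and 135 TPM. They fell by 2.99 ± 0.69 and 2.42 ± 0.36 in later leaves (limma adjusted p = 0.0323 and 0.00507). Over the sulfate and glutathione list, 4 of 15 genes were higher and 3 lower at 7 d, or 0 and 4 after recentring. The share higher, 26.7 percent, is near the 28.9 percent of all genes, and the share lower was 20 percent beside 3.34 percent. Later 2 rose and 2 fell, beside 5.33 and 2.09 percent of all genes. The genes that rose were the cysteine synthase CYSC1-like Sobic.006G016900, by 1.74 ± 0.35, and the sulfate transporter SULTR3;3-like Sobic.006G244000, by 1.15 ± 0.26 (limma adjusted p = 0.0197 and 0.0304).

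Asparagine synthetase was high instead. The ASN1-like gene Sobic.001G406800, whose product stores nitrogen as asparagine and which is known in Arabidopsis as dark-inducible, had 1052 TPM under iron limitation and 0.544 TPM in control. Its difference of 9.41 was the highest of the 12790 genes, and it rose by 9.10 ± 0.69 in later leaves (limma adjusted p = 0.000185). The other 7 d groups had 0.0972 to 1.76 TPM. A cytosolic glutamine synthetase, GSR2-like Sobic.001G116400, had 173 TPM under iron limitation and 29.5 TPM in control but was not called later (limma adjusted p = 0.179). Over the nitrogen list, 4 of 18 were higher and 2 lower at 7 d, shares of 22.2 and 11.1 percent beside 28.9 and 3.34 percent of all genes.

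The core of C4 carbon fixation stayed near control levels. PEP carboxylase Sobic.010G160700 had 7606 TPM under iron limitation and 6916 TPM in control, and PPDK Sobic.009G132900 had 4612 and 5382 TPM. NADP-malic enzyme Sobic.003G036200 had 3484 TPM under iron limitation and 2664 TPM in control, and carbonic anhydrase Sobic.003G234200 had 5132 and 5462 TPM. None of these 4 was called in later leaves. Other genes of the list were higher: alanine aminotransferase Sobic.001G260800 had 418 TPM under iron limitation and 83.3 TPM in control, and PEP carboxykinase Sobic.001G432800 had 91.0 and 30.6 TPM. Of these 2 genes the carboxykinase rose later, by 1.85 ± 0.33 (limma adjusted p = 0.012), and the aminotransferase was not called (limma adjusted p = 0.199). Over the C4 list, 7 of 28 genes were higher and 1 lower at 7 d (1 and 2 after recentring). The shares of 25 and 3.57 percent are near the 28.9 and 3.34 percent of all genes. Later 3 rose and 0 fell, beside 5.33 and 2.09 percent of all genes. Of 20 Calvin cycle genes, 1 was lower (5 percent) and none higher at 7 d, with a median of -0.08 beside 0.72 over all genes. Recentred, 7 were lower, beside 8.59 percent of all genes.

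**Figure D4:**
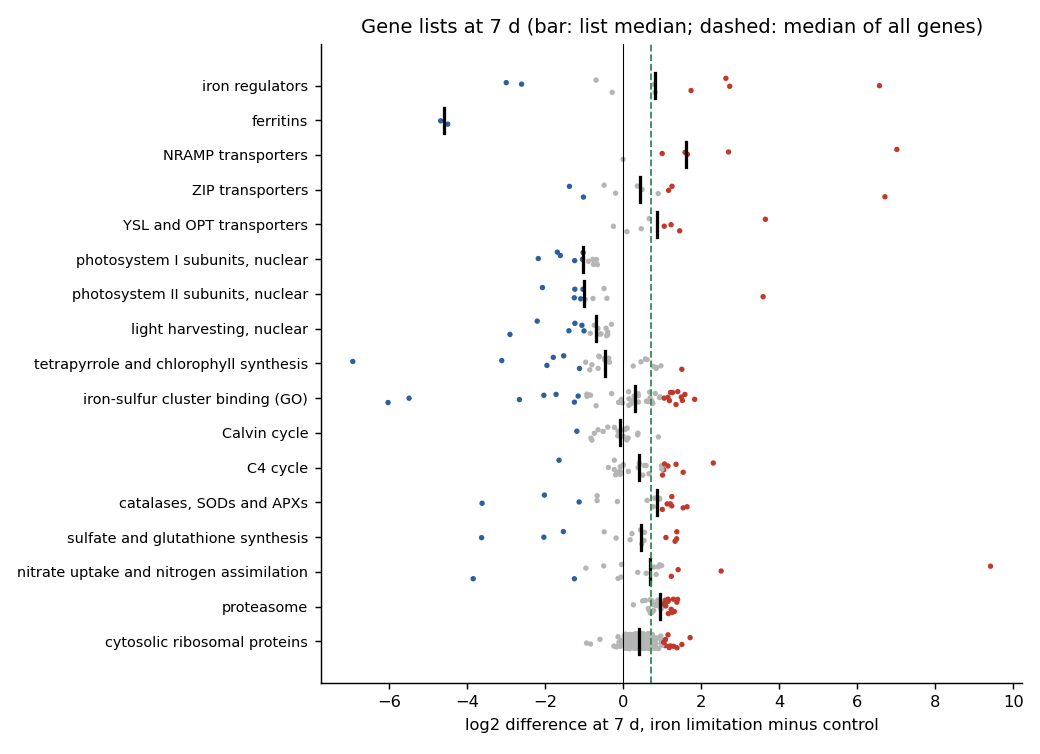
Points are measured members of 17 gene lists, placed by the 7 d log2 difference (iron limitation minus control), red at least 2-fold higher and blue at least 2-fold lower; black bars are list medians and the dashed line the median of all genes, 0.72. Ferritins, photosystem, light-harvesting and pigment lists lie left of 0, while proteasome and ribosomal protein lists lie near the median of all genes.

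Beyond iron handling, the largest rises included genes of no stated metal role. A major facilitator protein, Sobic.003G371100, had 1144 TPM under iron limitation and 4.54 TPM in control, and Sobic.001G107800, a predicted protein without an Arabidopsis hit, had 1650 and 7.75 TPM. In the other 7 d groups they had at most 0.185 and 0.0894 TPM. They rose by 10.47 ± 1.74 and 10.47 ± 1.44 in later leaves (limma adjusted p = 0.00892 and 0.00368). In roots of the same plants at 7 d, Sobic.001G107800 had 3528 TPM under iron limitation and 550 TPM in control. The bZIP factor Sobic.010G110100, PAN-like, had 213 TPM under iron limitation and 0.262 TPM in control, and the NAC factor Sobic.009G142200, ATAF1-like, had 128 and 0.185 TPM. Both rose, by 7.53 ± 0.70 and 7.64 ± 0.87 (limma adjusted p = 0.000456 and 0.00132).

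Early nodulin 75-like proteins, rich in hydroxyproline, had 262 TPM under iron limitation and 0.0520 TPM in control for Sobic.002G030650, which rose by 9.29 ± 1.28 (limma adjusted p = 0.00368). FLA11-like Sobic.002G351000, a fasciclin-like arabinogalactan protein of cell walls, behaved differently over time. It had 72.2 TPM under iron limitation and 0.0217 TPM in control at 7 d, 19.8 and 0 TPM at 14 d, and 0.645 and 0 TPM at 21 d, and was not called (limma adjusted p = 0.082).

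Proteasome and ribosomal protein genes differed in how many were past 2-fold. Of 36 proteasome genes, 15 were higher and none lower at 7 d (median 0.95), but none was past 2-fold after recentring, at 14 d or in the later test. Of 207 cytosolic ribosomal proteins, 12 were higher (5.8 percent, median 0.42), below the 28.9 percent of all genes. Protein kinases had 55 of 233 higher and 2 lower (23.6 percent higher). Genes annotated with zinc ion binding had 119 of 365 higher and 3 lower, shares of 32.6 and 0.822 percent.

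Few genes differed at the earlier times. At 2 d 240 of 11503 genes were higher (2.09 percent) and 243 lower (2.11 percent), and at 4 d 198 of 11388 were higher (1.74 percent) and 168 lower (1.48 percent), each against the control of its time. Of the genes higher at 7 d, 3.35 percent were higher at 2 d and 2.68 percent at 4 d, against 1.79 and 1.22 percent of all genes. Of the genes lower at 7 d, 7.26 percent were lower at 2 d and 9.37 percent at 4 d, against 1.59 and 0.946 percent of all genes. Some iron genes differed by 4 d. Ferritin Sobic.008G004800 had 17.2 TPM under iron limitation and 53.2 TPM in control, and NRAMP6-like Sobic.002G095600 had 23.4 and 3.71 TPM. The bHLH38-like gene had 160 TPM under iron limitation and 149.7 TPM in control at 4 d. At 14 d 3059 of 13596 genes were higher (22.5 percent) and 1061 lower (7.8 percent), and at 21 d 1466 of 13537 were higher (10.8 percent) and 1045 lower (7.72 percent). Of the 427 genes lower at 7 d, 62.3 percent were lower at 14 d and 55.7 percent at 21 d, against 5.74 and 6.1 percent of all genes. Of the 3697 genes higher at 7 d, 42.7 percent were higher at 14 d and 20.5 percent at 21 d, against 22 and 9.76 percent of all genes.

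In the test of later leaves, 155 of the 427 genes lower at 7 d fell (36.3 percent) and 1 rose, beside 2.09 percent falling among all genes. Of the 3697 genes higher at 7 d, 455 rose (12.3 percent) and 3 fell, beside 5.33 percent rising among all genes. Seen from the later leaves, 668 of 682 genes that rose had a 7 d difference above 0, and 242 of 267 that fell had one below 0. Of all 12790 genes, which entered by their 7 d levels, 86.8 percent had a 7 d difference above 0 and 13.2 percent one below 0. Among the 47 measured plastid look-alikes, 37 were lower at 7 d but 6 against the other 7 d groups, and 2 fell later.

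**Figure D5:**
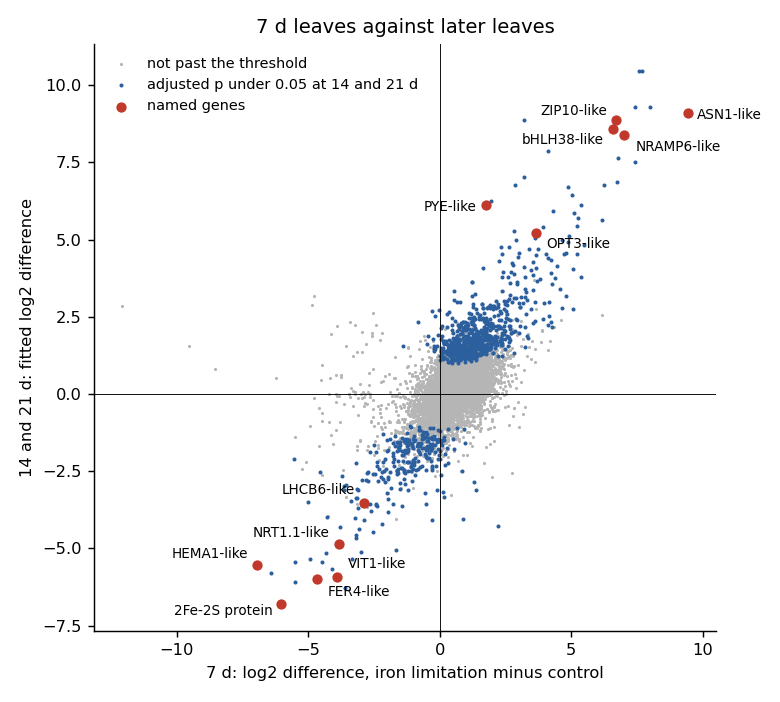
Each point is a gene, with the 7 d log2 difference on the x axis and the fitted log2 difference of iron limitation minus control over 14 d and 21 d on the y axis; blue points have limma adjusted p under 0.05. Of the 267 genes that fell later, 242 lie left of 0; the grey points at the far left near a later difference of 0 include genes high in the 7 d control alone.

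In roots of the same plants at 7 d far fewer genes differed. There 391 of 15453 genes were higher (2.53 percent) and 511 lower (3.31 percent), and of the genes higher in leaves 1.73 percent were higher in roots, against 1.34 percent of all genes. For the genes lower in leaves the share lower in roots was 7.73 percent, against 1.58 percent of all genes. Both ferritins were lower in roots, Sobic.008G004800 at 3.75 TPM under iron limitation and 13.9 TPM in control and Sobic.005G004500 at 4.78 and 12.0 TPM. BTS-like Sobic.009G222200 had 43.4 TPM under iron limitation and 10.2 TPM in control. The bHLH38-like gene was high in both root groups, with 519 TPM under iron limitation and 405 TPM in control. ASN1-like transcripts, 1052 TPM in iron-limited leaves, had 37.4 TPM in iron-limited roots and 52.8 TPM in control roots.

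The other solutions moved fewer leaf genes at 7 d, each set against the same control mean. Iron excess had 132 higher and 146 lower of 11213 genes (1.18 and 1.3 percent). Zinc excess had 700 higher and 341 lower of 11640 (6.01 and 2.93 percent), and zinc limitation 53 higher and 172 lower of 10788 (0.491 and 1.59 percent). Under iron excess VIT1-like Sobic.002G194600 stood at 180 TPM, against 14.97 TPM in control and 0.0743 TPM under iron limitation.

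Some genes that differed at 7 d did not differ the same way at 14 d or 21 d. The comparison held 11789 described genes. Of these, 929 were past 2-fold higher and 66 lower at 7 d while the same-way difference at both later times was under 1.5-fold. Both counts are without recentring. Over all 12790 genes, 3697 were higher and 427 lower at 7 d, but 696 and 1099 after recentring. The part of that general shift in the 929 was not tested. Of the 66, 49 were no organelle look-alikes. The earlier times were not part of this count. Plantacyanin-like Sobic.001G119000 had 20.0 TPM under iron limitation and 1.35 TPM in control at 7 d, and its differences were 0.11 at 2 d, -0.39 at 4 d, -1.07 at 14 d and -0.25 at 21 d. The lipoxygenase LOX1-like Sobic.003G385500 had 8.27 TPM under iron limitation and 0.498 TPM in control at 7 d. It was already higher at 2 d and 4 d, by 1.40 and 1.52, and its differences were -1.06 at 14 d and -0.95 at 21 d. The 6 lowest of the 66 at 7 d, Sobic.K044407 among them, had differences of -0.53 to 0.62 against the other 7 d groups.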

How the data were processed

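The deposited table holds mean TPM per tissue, treatment and time, computed by the authors over the plants of a group (57 columns, 26 of them leaf), with no replicate columns. The submitters' processing notes name DRAGEN, whose version and genome build the sources used here do not give. A further 8 root columns of the deposited table were recorded as signal because repeated rows raise their sums, and were not used here. Of 34924 rows, 795 repeats were dropped, leaving 34129 genes, 26873 with a description. No gene ID matched the reference table (0), so no coordinates or sequences are given. Depth is unknown, so no counting interval can be given.

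Differences are log2(TPM + 1), iron limitation minus control, for genes with at least 5 TPM in one 7 d group, called at 2-fold. The later-leaf contrast used limma with an intensity trend on 10 means (treatment plus time) and Benjamini-Hochberg adjustment at 0.05, and was tested on simulated data. Alternatives were other pseudocounts, minimum levels, folds, recentring, controls and limma sample sets; the controls from 4 d and 14 d, the other 7 d groups and removal of organelle look-alikes were added after seeing the data. The members, lists and rules were chosen with earlier results of these data known, and the separate photosystem lists after their values were seen. Named genes were the 15 largest rises and falls among described genes, up to 4 past 2-fold per list, every member of the iron regulation, ferritin, vacuolar iron, YSL/OPT and nicotianamine lists, the 6 largest each way at 7 d alone and at most 2 undescribed genes each way; any other gene was named with its values known. Software was Python 3.11.15, numpy 2.4.6, pandas 2.3.3, matplotlib 3.10.9, R 4.3.3 and limma 3.58.1.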

Additional observations from a re-analysis of the deposited data

Results flagged for a closer look

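Among the 6 control leaf means (0 h to 21 d), the 7 d mean of plastid look-alike transcripts, 15830 TPM, lay far from the rest. Its gap to the nearest mean was 0.79 of the whole range, above the critical 0.625. The 7 d control mean of mitochondrial look-alikes, 124.7 TPM, had a gap of 0.932. The 4 d control mean of the bHLH38-like gene, 149.7 TPM, had a gap of 0.912. Chance flags about 1 in 20 such groups when the quantity is fixed in advance, and these means come from different times. Several quantities were screened at both ends, with earlier results known, so that rate does not apply here. Not flagged were the 7 d control's photosystem and light-harvesting share (gap 0.157), top 10 gene share (0.0969) and expansin and xyloglucan enzyme sum (0.364). The ferritin Sobic.008G004800 was not flagged either (0.498 at 21 d).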

How the results depend on the processing

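No paired analysis was possible because the table holds 1 mean per group, and for the same reason no replicate could be left out. Of the genes higher (3697) and lower (427) at 7 d, a pseudocount of 5 left 1752 higher, a minimum of 20 TPM 1862 higher and 244 lower, a 4-fold threshold 415 and 186, recentring 696 and 1099, and rescaling without the 50 most abundant genes 1792 and 917. A minimum of 1 TPM or none gave 741 lower. The mean of 4, 7 and 14 d controls gave 2210 higher, the 4 d and 14 d controls 2034 and the other 7 d groups 2210. Lists with a median below 0 numbered 13, and 40 after recentring. In later leaves limma called 2346 higher and 902 lower on iron limitation and control alone, 3777 and 547 with 7 d added, 1278 higher with 2 d to 21 d, and 508 lower with columns recentred. The share of genes higher at 7 d that were also higher at 2 d was 5.15 percent (pseudocount 0.1), 7.18 (recentred) and 6.02 (other 7 d groups), at 4 d 11.5 (each time recentred) and 4.80 (other groups), and at 21 d 42.5 and 34.7; the share lower at 4 d was 3.91 recentred. Recentred, iron excess had 63 higher and zinc excess 204 higher and 639 lower. Against the 4 d and 14 d controls, and then the other 7 d groups, 12 and 9 of 208 named genes turned sign, mostly organelle look-alikes: Sobic.004G303466 1.00 and 1.62, Sobic.K031400 0.25 and 0.23, Sobic.001G251750 0.16 and 0.28, Sobic.004G120150 0.20 and 0.31, Sobic.001G231300 0.48 and 0.31, Sobic.003G139100 0.44 and 0.028, Sobic.003G352000 0.33 and 0.62, Sobic.003G142900 0.37 and 0.73, Sobic.K044407 0.11 and 0.013, and the mitochondrial look-alike median 0.23 and 0.29. Against the 4 d and 14 d controls Sobic.001G344500 gave -0.83, Sobic.010G041700 -0.25 and Sobic.003G338801 1.20 (0.044 with the 4, 7 and 14 d controls). The cause was not tested.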

Other observations

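Cytochrome P450 genes went both ways. Of 53 measured, 20 were higher and 4 lower at 7 d (8 and 8 after recentring), shares of 37.7 and 7.55 percent beside 28.9 and 3.34 percent of all genes. In later leaves 14 rose and 4 fell in the limma test, which called 5.33 percent of all genes higher and 2.09 percent lower. CYP78A9-like Sobic.002G272700 was already low at 2 d, with 8.45 TPM under iron limitation and 67.5 TPM in control, and had 2.06 and 51.3 TPM at 7 d. The xyloglucan enzyme XTH25-like Sobic.007G090463 had 368 TPM under iron limitation and 10.0 TPM in control, while 5 of the 11 genes on its list were lower and 2 higher. That count turned with the control: 7 were higher and 1 lower against the 4 d and 14 d controls, and 2 higher and 2 lower against the other 7 d groups. CER1-like Sobic.001G222700, of wax alkane synthesis, had 147 TPM under iron limitation and 10.2 TPM in control. Of 46 phosphate genes, 6 were higher and 8 lower (13 and 17.4 percent), and the PS2-like phosphatase Sobic.003G279300 had 2.25 TPM under iron limitation and 103 TPM in control.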
